A study of Mus musculus with 24 samples.

Results

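The 9 genes described here encode secreted antagonists of bone morphogenetic proteins (BMPs), measured in endothelial cells sorted from 2 mouse models of medulloblastoma and from normal hindbrain. They are Chrdl1, Chrd, Nog, Grem1, Sostdc1, Sost, Bmper, Twsg1 and Fst, 9 of 22180 genes with exactly 1 symbol in the platform annotation. They were matched by gene symbol, and where a gene has several probe sets the one with the highest mean over 24 arrays was selected by rule. Each of the 9 had a single probe set, so that step removed nothing. The list was drawn up with results of these arrays known, and the high values of Chrdl1 and Sostdc1 in Wnt tumour arrays had been seen when they were chosen from the table. Their differences that involve Wnt arrays are therefore given as a description with a standard error (SE), without a p. The p-values of the other members come from the test over all genes. They are no independent test of the list, which was drawn up with results of the same arrays known.

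Expression was measured with Affymetrix arrays, 8 for each group, on RNA of cells taken with magnetic beads through Cd144 and Cd105, surface proteins of endothelium encoded by Cdh5 and Eng. The Wnt tumours came from mice carrying Blbp-Cre with Ctnnb1 +/Exon3 flox, with Trp53 flox/flox and with Pik3ca +/flox. Blbp is encoded by Fabp7, a gene of neural progenitors and glia, and the labels do not say whether the sorted cells carried recombined alleles. The Shh tumours came from Ptch+/- mice that were also Ink4c-/-, and the hindbrain from adult wild-type mice. All were of mixed strain background, and the ages of the tumour-bearing mice are not given in the labels. Arrays are called Wnt, Shh and hindbrain arrays by the tissue of origin. The labels call the arrays of a group biological replicates without saying whether each came from a separate animal, so p-values measure the spread between arrays.

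BMPs bind pairs of type I and type II receptor kinases, which phosphorylate SMAD1, SMAD5 and SMAD9 and so raise genes such as those of the Id family. Secreted antagonists hold the ligand outside the cell and keep it from the receptor. In endothelium, the receptor Acvrl1 with its co-receptor endoglin carries much of this signal, and Sostdc1 and Sost also bind the Wnt co-receptors of the LRP family.

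Promoter sequences from RefSeq (GRCm38.p6, 250 bases before to 50 after the transcript start) were found for 5 of the 9 genes, Chrd, Twsg1, Bmper, Grem1 and Sost. Those of the 3 genes that rose in Wnt arrays and of Grem1, which did not pass the test, are shown 5′ to 3′, so that the set can be read beside the values. Capitals mark GGCGCC, a palindrome bound by SMADs of the BMP branch in Id1. The Chrd window is chr16:20732877-20733176 (plus strand), the Twsg1 window chr17:65951138-65951437 (minus strand), the Bmper window chr9:23222826-23223125 (plus strand) and the Grem1 window chr2:113758599-113758898 (minus strand). The annotated span of Chrd starts upstream of its window, at base 20731425, so this window surrounds a transcript start inside the gene.
Chrd: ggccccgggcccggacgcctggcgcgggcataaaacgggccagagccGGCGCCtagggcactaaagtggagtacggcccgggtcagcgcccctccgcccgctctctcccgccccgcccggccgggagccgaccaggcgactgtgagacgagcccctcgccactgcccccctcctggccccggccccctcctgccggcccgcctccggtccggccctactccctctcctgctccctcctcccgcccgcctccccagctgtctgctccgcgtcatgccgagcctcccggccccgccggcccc
Twsg1: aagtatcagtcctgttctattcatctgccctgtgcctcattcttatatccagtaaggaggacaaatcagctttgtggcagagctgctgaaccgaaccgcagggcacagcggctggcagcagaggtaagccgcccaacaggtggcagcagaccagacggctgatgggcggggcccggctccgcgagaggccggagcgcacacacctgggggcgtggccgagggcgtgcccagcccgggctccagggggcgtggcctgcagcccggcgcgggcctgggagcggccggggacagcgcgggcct
Bmper: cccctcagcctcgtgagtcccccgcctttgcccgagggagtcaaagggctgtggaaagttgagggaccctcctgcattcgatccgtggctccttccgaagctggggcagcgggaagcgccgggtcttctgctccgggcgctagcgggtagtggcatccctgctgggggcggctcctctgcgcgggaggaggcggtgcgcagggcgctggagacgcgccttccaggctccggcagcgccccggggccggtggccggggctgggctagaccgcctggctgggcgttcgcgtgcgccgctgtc
Grem1: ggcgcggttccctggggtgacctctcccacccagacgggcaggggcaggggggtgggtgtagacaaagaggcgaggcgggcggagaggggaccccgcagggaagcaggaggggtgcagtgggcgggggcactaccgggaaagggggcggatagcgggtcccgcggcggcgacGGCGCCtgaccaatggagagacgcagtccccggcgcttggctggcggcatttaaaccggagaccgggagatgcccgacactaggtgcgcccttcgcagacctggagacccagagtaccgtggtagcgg
GGCGCC was found once in Chrd, from base 48 of the window, and once in Grem1, from base 173, and 11.9% of 32851 promoter windows of this length hold it. The TCF/LEF words ATCAAAG and TTCAAAG, searched on both strands, were in none of the 5 windows, against 3.73% and 5.14% of all windows. The G and C content of the 5 windows ran from 62% in Sost to 78.3% in Chrd, beside a median of 52.7% over all windows. The shares over all windows are therefore not matched for base content, and nothing is read from the words found or absent. The palindrome was thus present in 1 gene that rose and in 1 that did not pass the test, and the windows of Twsg1, Bmper and Sost held none of the 3 words.

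The median log2 value of an array ranged from 5.96 to 6.18, and precision is limited by having 8 arrays a group. As a floor, 92 probe sets for ERCC spike-in sequences, absent from the mouse genome, had means with a 95th percentile of 5.24. A group mean at or under 5.24 is called dim here. The highest ERCC mean was 7.73, so a group mean that is not dim can still lie within the range of these controls. All 16 endothelial markers had means above 5.24 in every group. The mean over them ran from 9.76 to 11.1 in Wnt, 11.2 to 11.8 in Shh and 11.5 to 11.8 in hindbrain arrays. All 16 were lower in Wnt than in hindbrain arrays, with a median difference of -0.92, and Wnt arrays 8 and 1 had the lowest marker means. In Shh against hindbrain arrays 1 of the 16 rose and 3 fell. Of 12 pericyte markers 7 fell and 0 rose in Wnt against hindbrain arrays, and of 10 microglia and macrophage markers 10 fell. In sorted bulk RNA, fewer cells of a type and less RNA per cell cannot be told apart. The part of the lower endothelial level in the results on Wnt arrays was examined by fits with it as a covariate. Values relative to it and relations with it within the Wnt arrays are also given below. The marker means of Wnt arrays did not overlap with those of the other groups. A fit with that covariate therefore cannot separate the group from the endothelial level, and its values are a description. All values are log2 values, a mean is followed by its standard deviation (SD, n = 8), and a difference between groups by its SE from limma. Calls are at a Benjamini-Hochberg adjusted p under 0.05 over all 22180 genes, two-sided.

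Apart from Chrdl1 and Sostdc1, 5 of the other 7 BMP antagonists rose in Wnt against hindbrain arrays and 0 fell. Those that rose were Nog, Chrd, Bmper, Twsg1 and Fst, while Sost and Grem1 did not pass the test. Over all genes, 23.2% were called higher and 22% lower in that comparison. Since the list was drawn up with results of these arrays known, its counts beside these shares are a description. With Chrdl1 and Sostdc1 the count was 7 of 9, from which nothing is read because they were chosen with this difference known. In Shh against hindbrain arrays, 3 of 9 rose (Chrdl1, Chrd and Twsg1) and 1 fell (Nog), against 18.9% of all genes called higher and 18.9% called lower. For a list of 9 these counts lie near those shares and are no result about the list. In Wnt against Shh arrays, 5 of the other 7 were higher and 0 lower, against 18% and 17.8% of all genes. The 3 comparisons share arrays by pairs and are not independent. The median difference over the 9 genes was 1.31 in Wnt against hindbrain, -0.05 in Shh against hindbrain and 1.42 in Wnt against Shh arrays, beside -0.02, -0.02 and -0.0019 over all genes. Without Chrdl1 and Sostdc1, which were chosen with their Wnt values known, the medians over the other 7 were 1.25, -0.05 and 0.77.

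**Figure D1:**
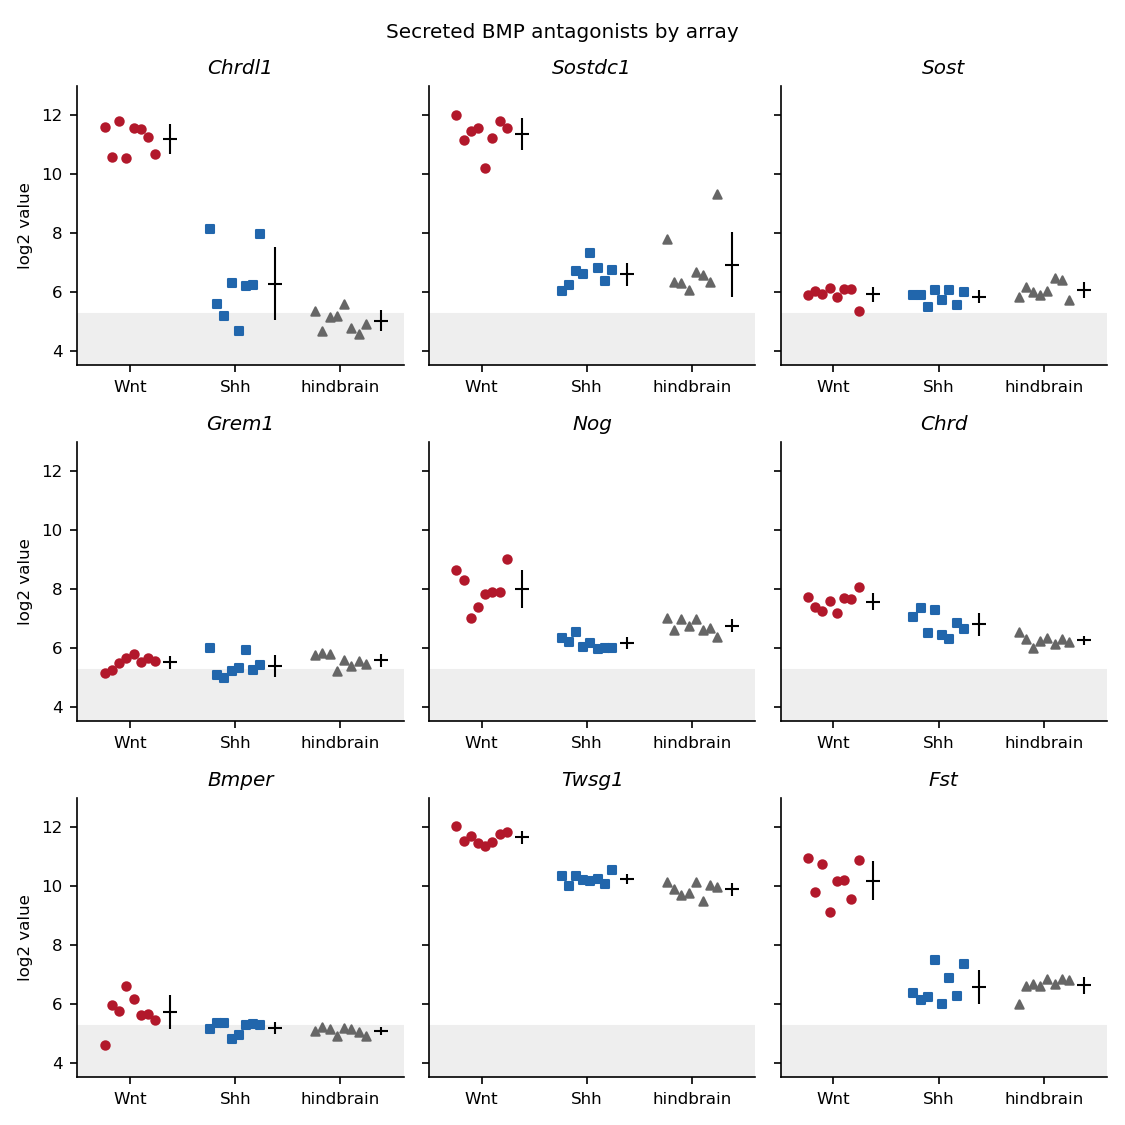
Log2 value of each of the 9 genes (panels) in each Wnt, Shh and hindbrain array (8 points a group), with the group mean (tick) and SD (bar) at its right. The grey band marks levels up to 5.24, the 95th percentile of the ERCC controls. Wnt arrays of Chrdl1, Sostdc1, Chrd, Twsg1 and Fst lie above all hindbrain arrays.

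Chrdl1, a chordin-like protein that binds BMPs and that astrocytes secrete in mouse brain, had its lowest value at 10.55, its median at 11.40 and its highest at 11.81 in Wnt arrays. In Shh arrays the lowest value was 4.67, the median 6.21 and the highest 8.15, and in hindbrain arrays they were 4.55, 5.03 and 5.58. Every Wnt array lay above every array of the other groups, while Shh and hindbrain arrays overlapped. Means were 11.20 ± 0.52 in Wnt, 6.28 ± 1.23 in Shh and 5.02 ± 0.35 in hindbrain arrays. The difference between Wnt and hindbrain was 6.18 ± 0.37, a 72.3-fold higher level whose size is uncertain because the hindbrain mean was dim, and it ranked 2 from the highest of 22180 genes. Between Wnt and Shh it was 4.92 ± 0.37. Shh arrays were higher than hindbrain arrays by 1.26 ± 0.37 (adjusted p = 0.00925), a comparison that shares the hindbrain arrays with the one known when the gene was chosen.

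Shh arrays differed among themselves in Chrdl1 more than the arrays of the other groups did, with an SD of 1.23. Arrays 1 and 8 had 8.15 and 7.96, and the other 6 lay between 4.67 and 6.31. The same arrays had the highest mean over 10 fibroblast markers, 9.37 in array 1 and 9.74 in array 8, against 8.61 to 8.84 in the others. Without them the Chrdl1 difference between Shh and hindbrain was 0.67 ± 0.26 (adjusted p = 0.0478), which still passed. Of the 10 fibroblast markers, 7 rose and 1 fell in Shh against hindbrain arrays, and 6 rose and 2 fell in Wnt against hindbrain arrays. Mean fibroblast marker levels ran from 8.17 to 9.39 in Wnt, 8.61 to 9.74 in Shh and 7.58 to 8.27 in hindbrain arrays, with 0 of the 10 dim in any group. Over the 8 Wnt arrays, Chrdl1 and the fibroblast level gave r = -0.46 (exact permutation p = 0.259, adjusted p = 0.401) and Spearman's rho = -0.71 (exact permutation p = 0.0576, adjusted p = 0.222), with r = -0.63 without arrays 3 and 8. Of 8 astrocyte markers, 2 rose and 1 fell in Wnt arrays and 5 rose and 0 fell in Shh arrays, with array means of 7.59 to 8.29 in Wnt, 7.82 to 9.14 in Shh and 7.38 to 8.20 in hindbrain arrays. The part of astrocyte RNA in the Chrdl1 values was not tested, nor that of fibroblast RNA beyond these values.

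Sostdc1, which binds BMPs and the LRP co-receptors of Wnt signalling, ran from 10.20 through a median of 11.51 to 12.01 in Wnt arrays. It ran from 6.05 through 6.66 to 7.31 in Shh arrays and from 6.06 through 6.47 to 9.34 in hindbrain arrays. All Wnt arrays lay above all others, and Shh and hindbrain arrays overlapped. Means were 11.37 ± 0.55 in Wnt, 6.60 ± 0.39 in Shh and 6.93 ± 1.11 in hindbrain arrays. The difference was 4.45 ± 0.35 between Wnt and hindbrain, a 21.8-fold higher level, and 4.78 ± 0.35 between Wnt and Shh. Between Shh and hindbrain it was -0.33 ± 0.35 (adjusted p = 0.494), with a 95% interval from -1.05 to 0.39.

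Hindbrain arrays 8 and 1 held the highest Sostdc1 values of that group, 9.34 and 7.79, and the other 6 lay between 6.06 and 6.69. These arrays also had the highest mean over 5 choroid plexus markers, 9.72 and 9.24, against 6.23 to 8.25 in the others. Ttr, the transthyretin that choroid plexus secretes, reached 12.66 in hindbrain arrays and 11.32 in Shh arrays. The Shh array with the highest choroid plexus level, array 5 with 8.29, also had the highest Sostdc1 value of its group, 7.31. Without hindbrain arrays 1 and 8, Sostdc1 differed by 4.99 ± 0.22 between Wnt and hindbrain arrays and by 0.22 ± 0.22 (adjusted p = 0.468) between Shh and hindbrain arrays. In Wnt arrays Ttr lay between 5.67 and 6.49 and Kl, another choroid plexus gene, between 5.54 and 6.62, against medians of 8.99 and 6.86 in hindbrain arrays. Of the 5 markers, Otx2 and Clic6 rose and Ttr and Kl fell in Wnt against hindbrain arrays, and 0 were dim in any group. The mean over the 5 ran from 7.89 to 8.34 in Wnt, 5.79 to 8.29 in Shh and 6.23 to 9.72 in hindbrain arrays. The part of choroid plexus RNA in the Sostdc1 values was not tested beyond leaving out these arrays.

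**Figure D2:**
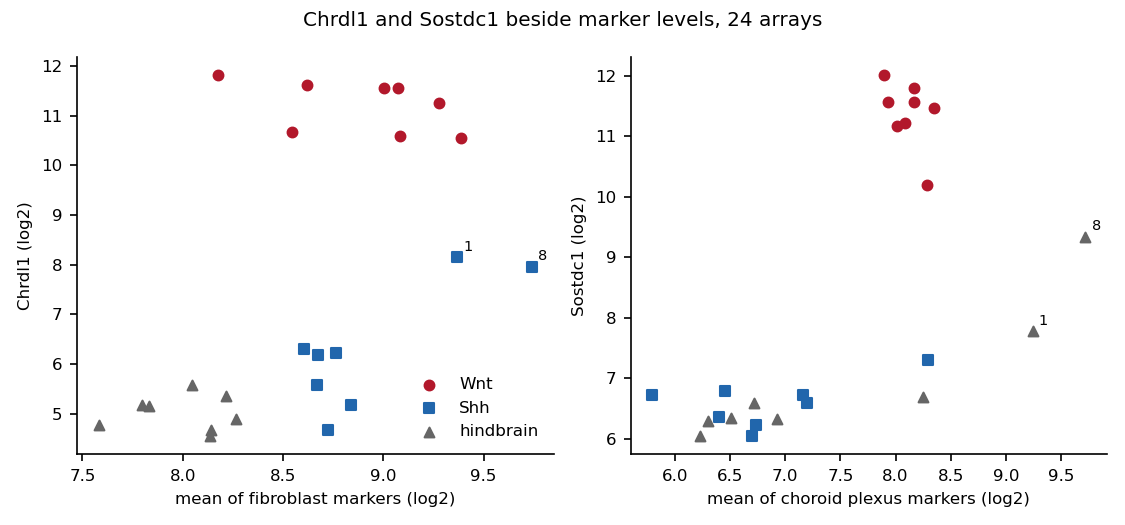
Left, Chrdl1 (log2) against the mean of 10 fibroblast markers (log2); right, Sostdc1 (log2) against the mean of 5 choroid plexus markers (log2), each point 1 of 24 arrays, coloured by group. Numbers mark Shh arrays 1 and 8 on the left and hindbrain arrays 1 and 8 on the right, which are the highest of their groups in both measures.

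Fst, follistatin, binds activins and some BMPs. Its lowest, median and highest values were 9.11, 10.20 and 10.97 in Wnt arrays, 6.0, 6.30 and 7.48 in Shh arrays and 5.99, 6.67 and 6.86 in hindbrain arrays. Every Wnt array was above every array of the other groups. Means were 10.19 ± 0.66 in Wnt, 6.58 ± 0.57 in Shh and 6.63 ± 0.28 in hindbrain arrays. Fst rose by 3.56 ± 0.25 in Wnt against hindbrain arrays (11.8-fold, adjusted p = 1.71e-11), and ranked 108 from the highest of 22180 genes. It was higher in Wnt than in Shh arrays by 3.61 ± 0.25 (adjusted p = 3.07e-11). Shh and hindbrain did not differ beyond their spread (-0.05 ± 0.25, adjusted p = 0.904, 95% interval -0.56 to 0.47).

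Twsg1, twisted gastrulation, binds both BMPs and chordin and can either strengthen or relieve the block of the ligand. It was bright in every group, with 11.38, 11.62 and 12.06 as the lowest, median and highest value in Wnt arrays. They were 10.00, 10.23 and 10.54 in Shh arrays and 9.50, 9.94 and 10.15 in hindbrain arrays. Wnt arrays lay apart from both other groups, which overlapped with each other. Twsg1 rose by 1.77 ± 0.10 in Wnt (3.40-fold, adjusted p = 8.95e-13) and by 0.35 ± 0.10 in Shh (1.27-fold, adjusted p = 0.01) against hindbrain arrays. The Wnt level exceeded the Shh level by 1.42 ± 0.10 (adjusted p = 9.7e-11), so the order was Wnt, Shh, hindbrain with each step past the threshold. Its spread within groups was small, with an SD of 0.23 in Wnt, 0.17 in Shh and 0.23 in hindbrain arrays.

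Chrd, chordin, the antagonist that Bmp1 and the tolloid proteases cleave to free the ligand, followed the same order. In Wnt arrays the lowest, median and highest values were 7.17, 7.62 and 8.09, in Shh arrays 6.30, 6.75 and 7.36, and in hindbrain arrays 6.01, 6.26 and 6.54. Wnt arrays did not overlap with hindbrain arrays, and Shh arrays overlapped with both. Chrd rose by 1.31 ± 0.14 in Wnt (2.49-fold, adjusted p = 3.47e-08) and by 0.55 ± 0.14 in Shh arrays (1.46-fold, adjusted p = 0.00393) against hindbrain, and was higher in Wnt than in Shh arrays by 0.77 ± 0.14 (adjusted p = 0.000128). With the endothelial marker mean as a covariate the difference between Wnt and Shh was 0.30 ± 0.21 and no longer passed (adjusted p = 0.366), and that between Wnt and hindbrain was 0.76 ± 0.24 (adjusted p = 0.0252).

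Nog, noggin, which binds BMPs such as BMP4 and covers their receptor contacts, moved in opposite directions in the tumours. Its lowest, median and highest values were 7.01, 7.90 and 9.02 in Wnt arrays, 5.95, 6.11 and 6.54 in Shh arrays and 6.38, 6.71 and 7.01 in hindbrain arrays. Wnt arrays were all above Shh arrays, and Wnt array 3 with 7.01 lay within the hindbrain range. Nog rose by 1.25 ± 0.20 in Wnt (2.39-fold, adjusted p = 7.75e-06) and fell by 0.59 on the log2 scale (SE 0.20, adjusted p = 0.019) in Shh against hindbrain arrays. Between Wnt and Shh the difference was 1.85 ± 0.20 (adjusted p = 4.7e-08). With the endothelial marker mean as a covariate the rise in Wnt against hindbrain arrays was 0.45 ± 0.31 and did not pass (adjusted p = 0.391), and the difference between Wnt and Shh was 1.16 ± 0.28 (adjusted p = 0.00558).

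Bmper, a chordin-related protein first described in endothelial precursor cells, was near the background. Its lowest, median and highest values were 4.61, 5.70 and 6.60 in Wnt, 4.82, 5.28 and 5.36 in Shh and 4.90, 5.11 and 5.23 in hindbrain arrays. The Shh and hindbrain means were dim. Of the Wnt arrays, array 1 with 4.61 lay below all others and the remaining 7 lay above all hindbrain arrays. Bmper rose by 0.65 ± 0.17 in Wnt against hindbrain arrays (1.57-fold, adjusted p = 0.00277). The difference between Wnt and Shh arrays was 0.54 ± 0.17 (adjusted p = 0.0147). With the endothelial marker mean as a covariate these were 1.43 ± 0.26 (adjusted p = 0.000327) and 1.20 ± 0.24 (adjusted p = 0.00089). In Shh against hindbrain arrays it gave 0.11 ± 0.17 (adjusted p = 0.659, 95% interval -0.24 to 0.46).

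Grem1, gremlin, a BMP antagonist of the DAN family, stayed low in all groups. It ran from 5.16 to 5.79 in Wnt, 4.97 to 6.0 in Shh and 5.23 to 5.83 in hindbrain arrays, and the groups overlapped. Differences were -0.07 ± 0.13 in Wnt against hindbrain (adjusted p = 0.719, 95% interval -0.35 to 0.21), -0.18 ± 0.13 in Shh against hindbrain (adjusted p = 0.306) and 0.11 ± 0.13 in Wnt against Shh (adjusted p = 0.56). Sost, sclerostin, which osteocytes secrete and which blocks LRP co-receptors, was also low. It ran from 5.35 to 6.12 in Wnt, 5.50 to 6.05 in Shh and 5.72 to 6.46 in hindbrain arrays. Differences were -0.15 ± 0.12 in Wnt against hindbrain (adjusted p = 0.343, 95% interval -0.40 to 0.10), -0.23 ± 0.12 in Shh against hindbrain (adjusted p = 0.133) and 0.08 ± 0.12 in Wnt against Shh (adjusted p = 0.633). Of this pair of related proteins, Sostdc1 was higher in Wnt arrays and Sost was not called.

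Counted by overlap, 5 of 9 genes had every Wnt array above every hindbrain array, Chrd, Twsg1 and Fst beside Chrdl1 and Sostdc1, and 10.6% of all genes did so. Between Wnt and Shh arrays the same count was 5 of 9, with Nog in place of Chrd, against 5.8% of all genes. Leaving out Chrdl1 and Sostdc1, it was 3 of 7 in each comparison, a description for the same reason as the counts of calls. In 0 of 9 members did the Shh arrays lie all above or all below the hindbrain arrays, which they did in 7.13% and 5.55% of all genes, and nothing is read from so small a count.

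**Figure D3:**
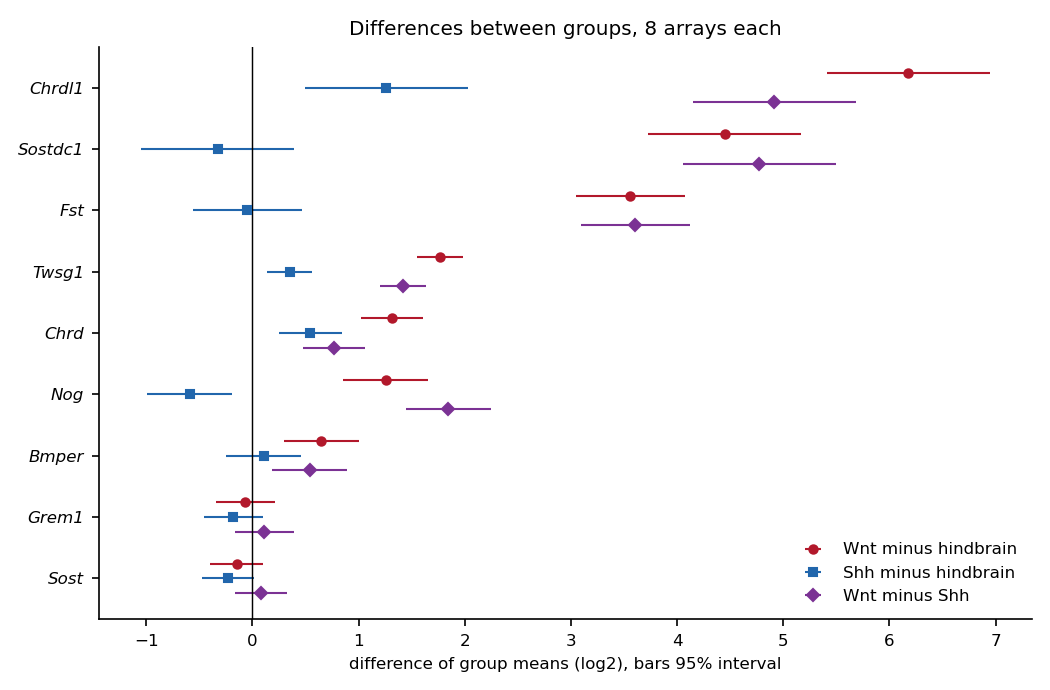
Differences between group means (log2, x axis) for the 9 genes (y axis), ordered by the Wnt minus hindbrain difference; points are the estimates and bars their 95% intervals from limma, 8 arrays a group. Nog is the gene whose Shh minus hindbrain interval lies wholly below 0 while its Wnt minus hindbrain interval lies wholly above it.

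For the 6 members whose group means spanned at least 1 on the log2 scale, the genes with the nearest profiles over the 24 arrays were found by the root mean square difference after centring each gene on its mean. Bmper, Sost and Grem1 spanned less and were left out. The nearest to Chrdl1 were Srpx2 (0.58), Crym (0.73) and Chrm3 (0.79), and the nearest to Sostdc1 were Pla2g5 (0.58), Clic6 (0.61) and Strip2 (0.63). Clic6 is also one of the choroid plexus markers. The nearest to Fst were Rmdn2 (0.46), Sp5 (0.46) and Barx2 (0.47), of which Sp5 is a target of beta-catenin. Twsg1 was nearest to Hacd2 (0.19), Brd7 (0.20) and Cryab (0.21), Chrd to Tmem138 (0.23), Maged1 (0.24) and Ptpn9 (0.24), and Nog to E030025P04Rik (0.33), Zfp804b (0.34) and B4galt5 (0.35). Among the members that rose in Wnt arrays, Chrd and Twsg1 were the nearest pair, with 0.41. These distances follow mainly the group means and are a description.

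Within the 8 Wnt arrays, each member was set beside the mean of the endothelial, fibroblast and neural progenitor markers, 27 relations in all. Twsg1 was lower in arrays with a higher endothelial level (r = -0.91, exact permutation p = 0.00181, adjusted p = 0.0475; Spearman's rho = -0.95, exact permutation p = 0.00114, adjusted p = 0.0308). Without arrays 1 and 8, the farthest from the median, r was -0.91. The mean over the pericyte markers was also lowest in arrays 1 and 8 (8.11 and 8.36), and its relation with Twsg1 was not tested. Fst was lower in arrays with a higher fibroblast level (r = -0.89, exact permutation p = 0.00352, adjusted p = 0.0475; rho = -0.88, exact permutation p = 0.00724, adjusted p = 0.0978), with r = -0.97 without arrays 3 and 8. After adjustment, 2 of the 27 relations passed on Pearson's r and 1 on Spearman's rho. Chrdl1 gave r = -0.01 (exact permutation p = 0.974) and Sostdc1 r = -0.58 (exact permutation p = 0.133) with the endothelial level. Bmper gave r = 0.79 (exact permutation p = 0.0145, adjusted p = 0.13), the opposite sign to Twsg1. Neural progenitor markers of Wnt arrays, from 7.01 to 7.45 as a mean over 9, lay near those of hindbrain arrays, 7.18 to 7.52, and below those of Shh arrays, 7.86 to 9.04. Of these 9 markers 3 rose and 3 fell in Wnt against hindbrain arrays, and 1 was dim in Wnt and in hindbrain arrays. The near means thus join opposite moves. Sox11 had a median of 8.29 in Wnt and 5.52 in hindbrain arrays, and Prom1 had 7.51 in Wnt and 11.26 in hindbrain arrays. The part of tumour cell RNA in the Wnt values was not tested.

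**Figure D4:**
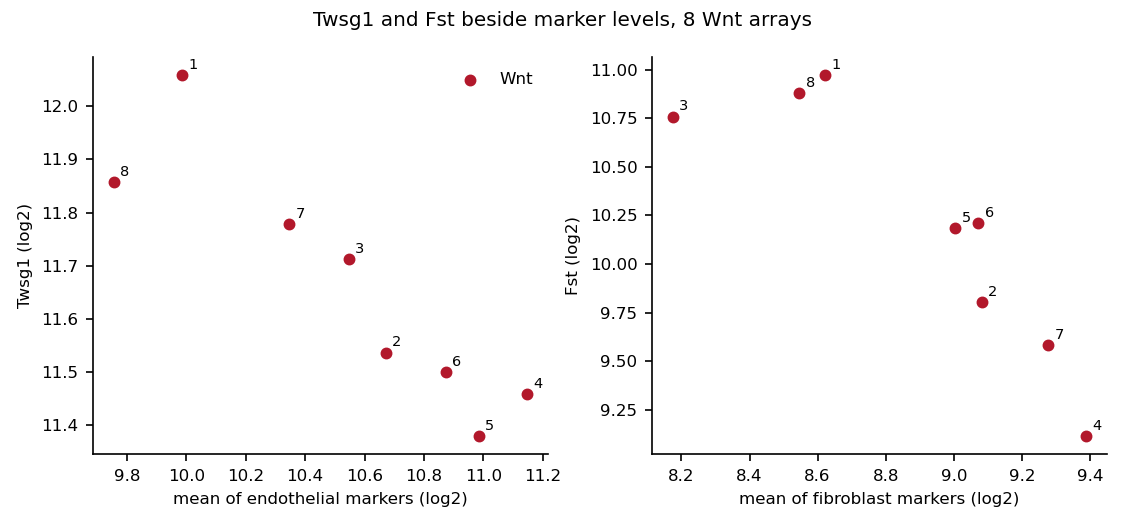
Left, Twsg1 (log2) against the mean of 16 endothelial markers (log2); right, Fst (log2) against the mean of 10 fibroblast markers (log2), in the 8 Wnt arrays, numbered by replicate. Both fall from left to right, with r = -0.91 and r = -0.89.

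The proteins that the antagonists act on were read from lists of the pathway, all against hindbrain arrays unless another group is named. Beside the counts below, 23.2% of all genes were called higher and 22% lower in Wnt arrays, and 18.9% each way in Shh arrays. In Wnt against Shh arrays the shares were 18% and 17.8%. Of 17 BMP and activin ligands, 9 rose and 1 fell in Wnt against hindbrain arrays, with a median difference of 0.95, and 2 rose and 3 fell in Shh against hindbrain arrays, with a median of -0.13. Bmp7 rose by 3.77 ± 0.26 in Wnt (adjusted p = 1.02e-11) and 1.19 ± 0.26 in Shh arrays (adjusted p = 0.000635), and ran from 10.75 to 12.47 in Wnt, 8.47 to 10.14 in Shh and 7.21 to 8.85 in hindbrain arrays. Bmp3, a BMP that can itself oppose others, rose by 2.98 ± 0.31 in Wnt arrays (adjusted p = 1.83e-08). Bmp2 rose by 2.85 ± 0.25 in Wnt arrays (adjusted p = 7.6e-10) and fell by 0.96 on the log2 scale in Shh arrays (SE 0.25, adjusted p = 0.0034). Bmp4 rose by 2.93 ± 0.16 in Wnt (adjusted p = 3.51e-13) and 0.72 ± 0.16 in Shh arrays (adjusted p = 0.00118). Bmp2, Bmp4 and Bmp7, ligands of noggin and chordin, were thus all higher in Wnt than in hindbrain arrays. Bmp10, a ligand of Acvrl1, fell by 0.18 (SE 0.07, adjusted p = 0.0339) in Wnt and by 0.37 (SE 0.07, adjusted p = 9.52e-05) in Shh arrays on the log2 scale, with means of 4.97, 4.77 and 5.14 in Wnt, Shh and hindbrain arrays, all dim.

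Of 14 further extracellular modulators measured, 7 rose and 2 fell in Wnt arrays, with a median of 0.38, and 5 rose and 2 fell in Shh arrays, with a median of 0.03. Fstl1, a follistatin-like protein, rose by 3.22 ± 0.14 in Wnt (adjusted p = 3.03e-15) and 2.06 ± 0.14 in Shh arrays (adjusted p = 3.82e-11). Bmp1, the protease that cleaves chordin, rose by 2.36 ± 0.11 in Wnt (adjusted p = 1.11e-14) and 2.07 ± 0.11 in Shh arrays (adjusted p = 8.19e-13). Kcp, a chordin-related protein that in mouse enhances BMP signalling, fell by 1.43 on the log2 scale in Wnt arrays (SE 0.20, adjusted p = 1.32e-06), and the matrix protein Smoc2 fell by 0.66 (SE 0.18, adjusted p = 0.00321). Both rose in Shh arrays, Kcp by 0.65 ± 0.20 (adjusted p = 0.0106) and Smoc2 by 1.83 ± 0.18 (adjusted p = 1.51e-08). In Shh arrays Crim1, a membrane protein with chordin-like repeats, fell by 0.50 (SE 0.12, adjusted p = 0.00181) and Vwc2l, dim in every group, by 0.23 (SE 0.08, adjusted p = 0.025) on the log2 scale.

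**Figure D5:**
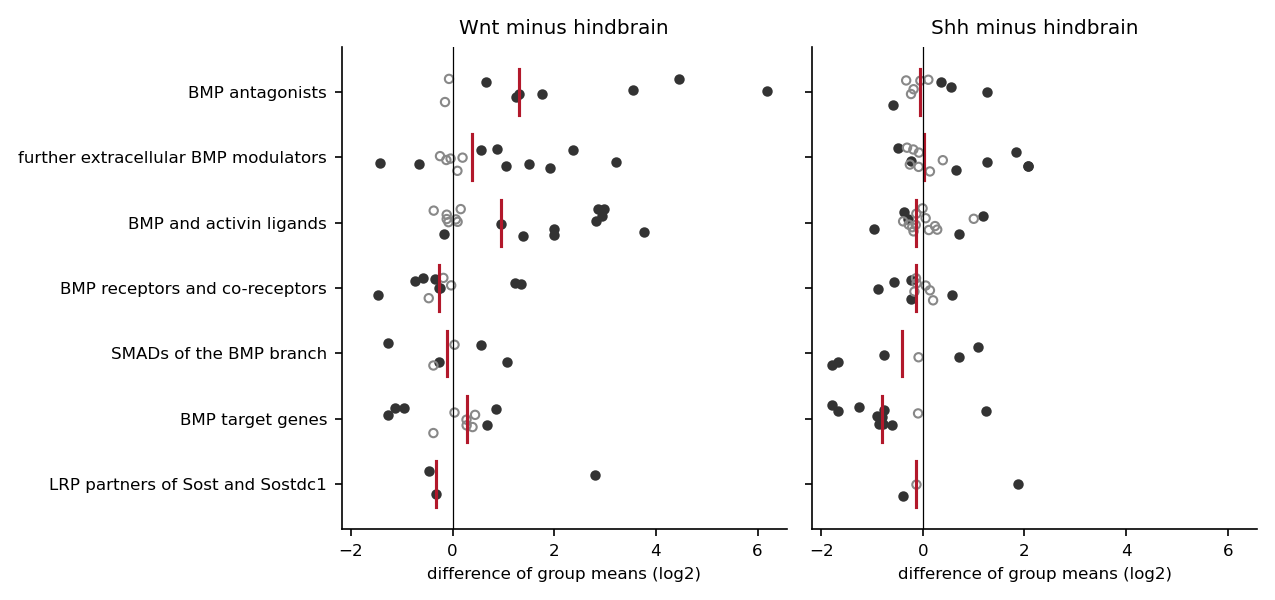
Difference of group means (log2, x axis) for each measured gene of 7 lists (rows), Wnt minus hindbrain on the left and Shh minus hindbrain on the right. Filled points had an adjusted p under 0.05, open points did not, and red lines are list medians. The median of the 11 BMP target genes is 0.27 on the left and -0.80 on the right.

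Of 11 receptors and co-receptors measured, 2 rose and 6 fell in Wnt arrays, with a median of -0.26, and 1 rose and 4 fell in Shh arrays, with a median of -0.13. The type I receptor Bmpr1a rose by 1.35 ± 0.13 in Wnt arrays (adjusted p = 8.71e-09), as did Neo1, a receptor that BMP co-receptors of the RGM family bind (1.23 ± 0.20, adjusted p = 1.16e-05). Acvrl1 fell by 1.48 on the log2 scale in Wnt (SE 0.14, adjusted p = 2.74e-09) and by 0.57 in Shh arrays (SE 0.14, adjusted p = 0.00194). Eng, a sort antigen and also among the 16 endothelial markers, fell by 0.74 in Wnt arrays (SE 0.10, adjusted p = 1.43e-06). All 16 markers were lower in Wnt arrays, with a median difference of -0.92. Whether the receptors fell beyond this lower endothelial level was not tested. In Shh arrays Tgfbr3 fell by 0.87 (SE 0.26, adjusted p = 0.0105) and Bmpr1b rose by 0.57 ± 0.16 (adjusted p = 0.00592) with dim means in every group. Of the 3 LRP proteins that Sostdc1 and Sost bind, Lrp4 rose by 2.81 ± 0.13 in Wnt (adjusted p = 9.72e-15) and 1.87 ± 0.13 in Shh arrays (adjusted p = 5.78e-11). Lrp5 fell by 0.46 (SE 0.10, adjusted p = 0.000363) in Wnt and by 0.39 (SE 0.10, adjusted p = 0.00324) in Shh arrays, and Lrp6 by 0.32 in Wnt arrays (SE 0.07, adjusted p = 0.000288).

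The SMADs and their target genes lie downstream of the ligands that the antagonists hold. Of 11 BMP target genes measured, 2 were called higher and 3 lower in Wnt against hindbrain arrays, with a median of 0.27. In Shh against hindbrain arrays 1 rose, 9 fell and 1 did not pass, with a median of -0.80. The Wnt arrays were higher than the Shh arrays in 8 and lower in 1. Smad6, an inhibitory SMAD that BMP signalling raises, fell by 1.78 on the log2 scale in Shh arrays (SE 0.20, adjusted p = 1.5e-07), with -0.38 ± 0.20 in Wnt arrays (adjusted p = 0.131). Smad7, the other inhibitory SMAD, fell by 1.67 in Shh (SE 0.14, adjusted p = 1.81e-09) and by 1.26 in Wnt arrays (SE 0.14, adjusted p = 5.24e-08). Id2, a transcription regulator, fell by 1.14 in Wnt (SE 0.18, adjusted p = 1.04e-05) and by 0.87 in Shh arrays (SE 0.18, adjusted p = 0.000483). Id1 fell by 0.96 in Wnt (SE 0.15, adjusted p = 9.65e-06) and by 0.60 in Shh arrays (SE 0.15, adjusted p = 0.00292). Id3 and Id4 were not called in Wnt arrays (0.27 ± 0.11, adjusted p = 0.0512, and 0.28 ± 0.19, adjusted p = 0.263). Both fell in Shh arrays, by 0.78 (SE 0.11, adjusted p = 6.58e-06) and 0.80 (SE 0.19, adjusted p = 0.00192). Bambi, a decoy receptor, rose by 0.85 ± 0.15 in Wnt (adjusted p = 5.14e-05) and 1.24 ± 0.15 in Shh arrays (adjusted p = 6.46e-07), and Atoh8 rose by 0.67 ± 0.14 in Wnt arrays (adjusted p = 0.000389) and fell by 0.90 on the log2 scale in Shh arrays (SE 0.14, adjusted p = 2.17e-05). Of 6 SMADs, 3 of them also in the target list, 2 rose and 2 fell in Wnt arrays and 2 rose and 3 fell in Shh arrays. Smad1 rose by 0.55 ± 0.09 in Wnt (adjusted p = 1.36e-05) and 1.08 ± 0.09 in Shh arrays (adjusted p = 1.28e-09), and Smad5 by 1.08 ± 0.14 in Wnt (adjusted p = 3.41e-07) and 0.72 ± 0.14 in Shh arrays (adjusted p = 0.000172). Smad4, shared with TGF-beta signalling, fell by 0.26 in Wnt arrays (SE 0.05, adjusted p = 0.000239).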

How the data were processed

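Endothelial cells sorted from Wnt and Shh medulloblastoma and from adult hindbrain of mice were measured on 24 Affymetrix arrays, 8 a group. The authors deposited 1 value per probe set and array, taken here as log2 from its range of 1.73 to 14.0. Partek 6.6 is named without its role, per the submitters' processing notes. How probes were summarised, corrected for background and normalized is not given in the sources used here.

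Of 41345 probe sets, 23521 had 1 gene symbol in the platform annotation, 99.2% of them matched to a gene ID of the reference table (GRCm38.p6). Each gene was its probe set with the highest mean, which left 22180 genes. Deposited values were used as they are. A linear model with the group as factor was fitted to all genes and arrays by limma 3.58.1 (R 4.3.3), using lmFit and then eBayes with no trend on 21 residual degrees of freedom, and p-values had Benjamini-Hochberg adjustment. Tested on simulated data with 22180 genes, it called 45 of 50 genes given a true log2 shift of 1 for Wnt minus hindbrain, with 12 false calls. The simulation shifted 200 genes and drew independent normal noise with the same spread in every group. Far more genes were called in the real arrays, and spreads differed between groups, so the recovery in these data is not given by it. Relations with marker means were tested by exact permutation (scipy 1.17.1). The members, gene lists, markers and tests were chosen with earlier results of these data known. All 9 members are named, and of each pathway list the 2 largest rises and the 2 largest falls among called genes of each tumour comparison with hindbrain. The remaining Id genes were named beside Id2. The titles do not say whether array numbers pair the arrays. Deviations of same-numbered arrays correlated from -0.146 to 0.282. Differently numbered arrays were not set beside them, so a pairing or a shared batch by number was not tested. Alternatives were other probe set rules, normalizations, filters, variance models, covariates and arrays left out. The probe design's build is not named, so no probe coordinates are given, and promoter windows carry the coordinates of the RefSeq table (GRCm38.p6).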

Additional observations from a re-analysis of the deposited data

Results flagged for a closer look

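Of 27 groups of 8 arrays (9 genes in 3 groups), 3 held an array far from the rest, meaning that its gap to the nearest other array took over 0.526 of the whole range of the group. Chance flags about 1 in 20 such groups. Sostdc1 was lowest in Wnt array 5 (10.20), with the next array at 11.18, and this value still lay above every Shh and hindbrain array. Sost was lowest in Wnt array 8 (5.35), with the next at 5.82. Fst was lowest in hindbrain array 1 (5.99), with the next at 6.59. The cause was not tested.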

How the results depend on the processing

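The counts of members called were 7 higher in Wnt against hindbrain arrays, 3 higher and 1 lower in Shh against hindbrain arrays and 7 higher in Wnt against Shh arrays. Leaving out any single array of a comparison kept each of these counts (7 to 7, 3 to 3, 1 to 1 and 7 to 7), and no call of a member changed. With the replicate block by array number they were again 7, 3, 1 and 7. The number called lower in Shh against hindbrain arrays was 2 with arrays shifted to the same median over named genes and 2 without hindbrain arrays 1 and 8, with Sost the added gene in both (-0.32, adjusted p = 0.0396, and -0.33, adjusted p = 0.0411), and 0 relative to the endothelial marker mean. These 2 settings with 2 genes and the fit without Shh arrays 1 and 8 were chosen after seeing the data. Relative to the endothelial marker mean, which shifted the median of all genes by 1.11 in Wnt against hindbrain arrays, Sost was 0.99 and Grem1 1.07 higher in Wnt against hindbrain arrays, the opposite sign to the deposited scale, while Nog (-0.42, adjusted p = 0.36) and Twsg1 (0.52, adjusted p = 0.0874) no longer passed in Shh against hindbrain arrays. With the endothelial marker mean as covariate, Nog in Wnt against hindbrain arrays (0.45) and Chrd in Wnt against Shh arrays (0.30) no longer passed. In Wnt against hindbrain arrays 6 members were then called higher, beside 9.96% of all genes. On the scale relative to that mean it was 9 members, beside 91.9% of all genes. Relative to the endothelial marker mean, 97.6% of called genes were higher in Wnt against hindbrain arrays, against 51.3% on the deposited scale, 59.9% with arrays shifted to the same median and 34.9% with that median over named genes. In Wnt against Shh arrays these were 98.2%, 50.3%, 62.2% and 45.8%, and in Shh against hindbrain arrays 73.9%, 50.1%, 49.2% and 33.4%. With Chrdl1 in hindbrain and Bmper in hindbrain and Shh arrays at the level of the ERCC controls, the size of their differences is limited by signal over background.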
